A study of Mus musculus with 12 samples.

Results

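Small RNA libraries of 5 mouse cell types were examined for miR-148a, miR-148b and miR-152, a miRNA family known for acting on DNA methyltransferases. The members were taken by name, as every listed arm of these 3 hairpins, which gave 6 of the 1042 miRNAs in the table: a 3p and a 5p arm of each hairpin. All 6 had at least 10 reads in at least 2 libraries and so belonged to the 732 miRNAs tested. miR-152-5p met that minimum only through the fibroblast libraries, where it therefore had to be higher.

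The 12 libraries held RNA of 18 to 30 bases. Mouse embryonic fibroblasts (MEFs, C57B6/129SvJae F1) gave 3 libraries and the embryonic stem cell (ESC) line E14 (strain 129/ola) gave 3. The reprogrammed cells all came from the same C57B6/129SvJae F1 MEFs and gave 2 libraries each. Induced pluripotent stem cells (iPSCs) were made with Oct4, Sox2, Klf4 and c-Myc from a dox-inducible lentivirus. Nuclear transfer of MEFs gave the NT-ESCs, and the NT-iPSCs came from iPSC nuclei placed into enucleated oocytes. ESCs and all reprogrammed cells were grown with LIF on irradiated MEF feeders, so feeder RNA can be part of those libraries. Each cell type was 1 line and its libraries were batches of RNA from that line, so the p-values measure only the spread between batches of RNA. ESCs also differed in strain from the reprogrammed cells, and strain and origin cannot be told apart. In the study's summary of its sequencing, every reprogrammed library has more reads in total than any MEF or ESC library. Each also has a smaller share of reads lacking the 3′ adaptor. This split of the libraries coincides with that between reprogrammed and other cells, so its part in the differences cannot be told apart. The comparisons asked whether cells reprogrammed in different ways carried the miRNAs of natural ESCs, of the MEFs they came from, or neither.

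The libraries held 4863365 to 8608689 miRNA reads, with the most in MEFs (7867514 to 8608689). The 7 pluripotency markers, of the miR-290 and miR-302 clusters, summed to 37127 to 48634 reads per 1000000 miRNA reads (CPM) in ESCs and 34020 to 51895 CPM in reprogrammed cells. In MEFs they reached at most 4.99 CPM, and 3 of the 7 were at 0 in every MEF library. The 6 fibroblast markers summed to 62230 to 91930 CPM in MEFs, 39198 to 43715 CPM in ESCs and 11337 to 37479 CPM in reprogrammed cells. The labels thus held for pluripotency. Of the fibroblast sum in ESCs, miR-143-3p alone gave 35935 to 40712 CPM. The 4 fibroblast markers other than miR-143-3p and miR-199a-3p summed to 1556 to 1647 CPM in ESCs and 6704 to 8070 CPM in MEFs.

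A miRNA is cut from a hairpin precursor and guides a silencing complex to messenger RNAs that pair with its seed, bases 2 to 8 from the 5′ end. One arm of the hairpin usually becomes the abundant guide, here the 3p arm, and the other is largely degraded. Dnmt1 copies DNA methylation onto newly made strands, Dnmt3a and Dnmt3b set new methylation with the cofactor Dnmt3l, and Uhrf1 brings Dnmt1 to hemimethylated DNA. Members of the family are known to repress DNMT1 and DNMT3B messages.

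The mature sequences show what the members share and where they part, so they are printed with the seed in capitals (RefSeq, GRCm38.p6). All 6 names matched this table.
mmu-miR-148a-3p: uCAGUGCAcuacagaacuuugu
mmu-miR-148b-3p: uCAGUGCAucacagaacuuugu
mmu-miR-152-3p: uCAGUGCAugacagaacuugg
mmu-miR-148a-5p: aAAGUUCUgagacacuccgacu
mmu-miR-148b-5p: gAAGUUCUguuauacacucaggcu
mmu-miR-152-5p: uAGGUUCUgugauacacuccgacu

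The 3p arms all carried the seed CAGUGCA, and no other of the 1679 mature mouse miRNAs searched did. Counted from 1 at the 5′ end, miR-148b-3p differed from miR-148a-3p only by C9U and U10C, so 20 of 22 bases were the same. miR-152-3p differed from miR-148a-3p by C9U, U10G and U20G over the 21 bases compared, and from miR-148b-3p by C10G and U20G. With 2 or 3 bases between them, the split of reads among the 3p arms depends on how mismatches were treated when reads were assigned, which is not given in the sources used here. The 5p arms were less alike. miR-148a-5p and miR-148b-5p shared the seed AAGUUCU and differed at 9 of 22 positions, and miR-152-5p had the seed AGGUUCU.

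The 3 hairpins lie on different chromosomes, and they are printed because each gives both arms, shown in capitals (RefSeq, GRCm38.p6, sequence of the transcribed strand). Mir148a is at chr6:51269812-51269910 on the minus strand, in no annotated gene of GENCODE M21. Its nearest gene is the lincRNA Gm32479 at 13622 bases and its nearest protein-coding gene Nfe2l3 at 162760 bases. Mir148b, at chr15:103285125-103285221 on the plus strand, lies in an intron of Copz1, and Mir152, at chr11:96850393-96850465 on the plus strand, in an intron of Copz2. The 2 host genes are paralogs that encode zeta subunits of the COPI vesicle coat.
Mir148a: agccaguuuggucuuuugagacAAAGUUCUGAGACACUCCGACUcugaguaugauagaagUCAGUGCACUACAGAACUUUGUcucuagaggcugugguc
Mir148b: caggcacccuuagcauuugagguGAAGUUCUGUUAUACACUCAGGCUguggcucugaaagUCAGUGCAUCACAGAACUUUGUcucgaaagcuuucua
Mir152: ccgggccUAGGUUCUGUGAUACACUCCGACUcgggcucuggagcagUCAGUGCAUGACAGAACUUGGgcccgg

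The messages themselves were not measured, but the letters that pair with the shared seed, TGCACTG, were searched on the sense strand of the GENCODE M21 transcript with the longest coding sequence of each gene. Dnmt1 held 1 match in its 3′ UTR of 312 bases and Uhrf1 held 1 in its 3′ UTR of 984 bases. Dnmt3a and Dnmt3b each held 1 match in the coding sequence and none in the 3′ UTR. Dnmt3l held none in either. In each of these 4 matches the next base was A, giving TGCACTGA. They are shown with 15 bases before them and these 8 letters in capitals.
Dnmt1, 3′ UTR, bases 23 to 30: acccagagccccacgTGCACTGA
Uhrf1, 3′ UTR, bases 613 to 620: ctggttttcagagagTGCACTGA
Dnmt3a, coding sequence, bases 2569 to 2576: gaggacatcctgtggTGCACTGA
Dnmt3b, coding sequence, bases 2425 to 2432: gacgacgttttgtggTGCACTGA

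Among the 15091 genes whose 3′ UTR was at least as long as that of Dnmt1, 4.18% held TGCACTG in a window of that length, and the share was 10.3% for the window of Uhrf1. For coding windows as long as those of Dnmt3a and Dnmt3b the shares were 23.7% and 22.8%. A match is a description of the letters and not a measured site.

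Levels are given as reads, as CPM, and as the VST value, which is the deposited measure: normalized reads after a variance stabilizing transformation on a log2 scale, so that a difference of 1 is close to a doubling for all but the lowest miRNAs. Reads of different miRNAs were captured with unequal efficiency in ligation, so a ratio between members is a ratio of reads and not of molecules. The plot of VST values by library shows all 6 members.

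**Figure D1:**
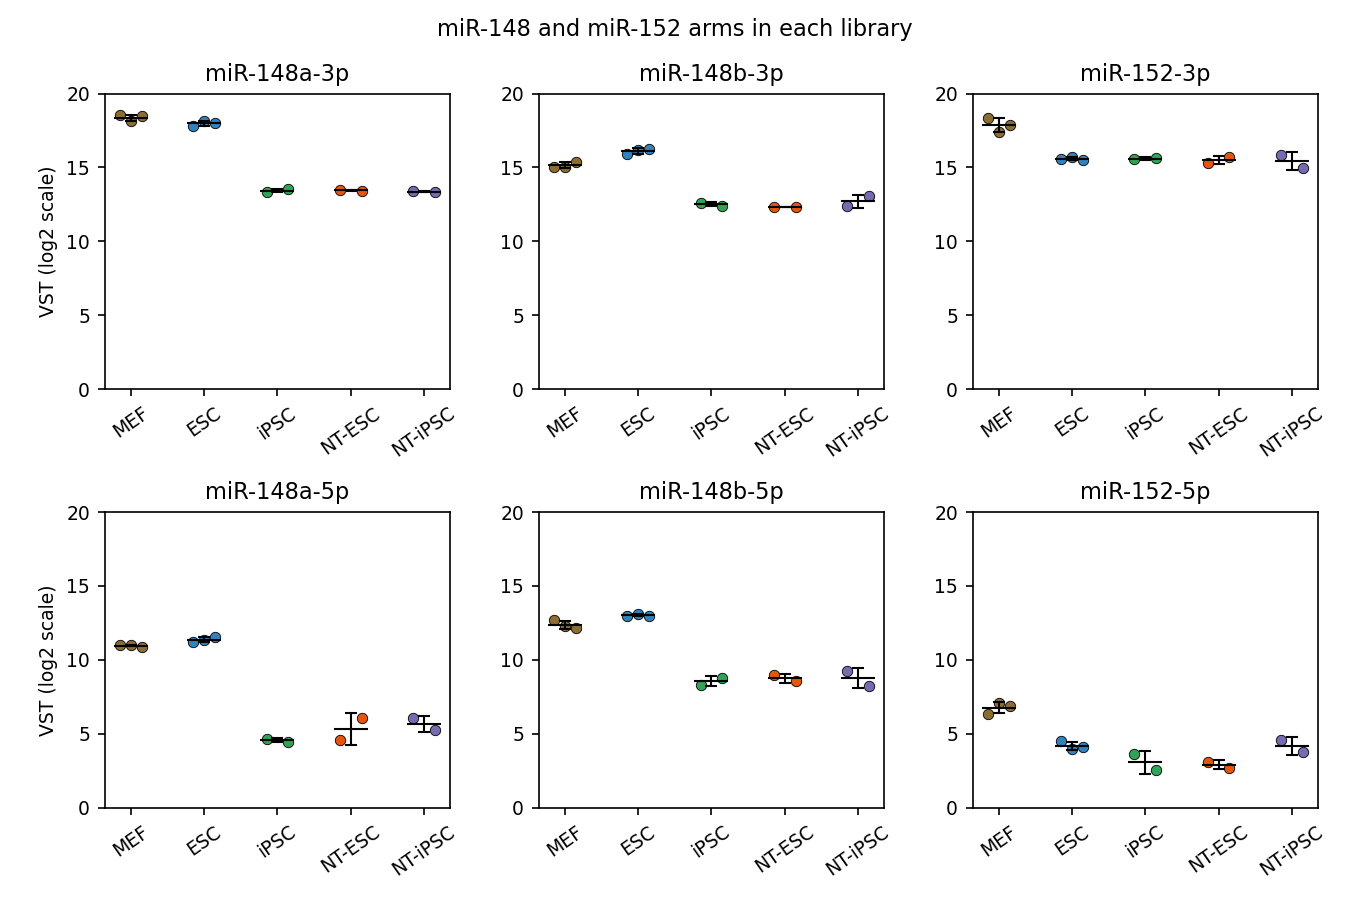
VST values (log2 scale) of the 6 arms in each of the 12 libraries, grouped by cell type; points are libraries, the horizontal mark is the mean and the bars are 1 SD. The arms of miR-148a and miR-148b are low in all 6 reprogrammed libraries, whereas miR-152-3p is at 14.99 to 15.85 there and at 15.53 to 15.71 in ESCs.

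miR-148a-3p, the most abundant member in MEFs and ESCs, was high in both and low in every reprogrammed library. MEF libraries 13, 14 and 15 held 66317, 55000 and 66172 reads (7704, 6991 and 8216 CPM), and ESC libraries 2, 3 and 4 held 47390, 66133 and 55992 reads (9744, 11459 and 11143 CPM). The 6 reprogrammed libraries ran from 397 CPM through a median of 484 CPM to 621 CPM. No reprogrammed library came near the lowest MEF or ESC library. On the VST scale the means were 18.37 ± 0.20 in MEFs (SD, n = 3), 17.98 ± 0.16 in ESCs (n = 3), 13.43 ± 0.12, 13.45 ± 0.02 and 13.36 ± 0.04 for iPSCs, NT-ESCs and NT-iPSCs (n = 2 each). In CPM, ESCs were 21.6-fold and MEFs 15.3-fold above the mean of the reprogrammed libraries. By the normalized reads that underlie the VST values, these were 23.8-fold and 31.3-fold.

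By limma across all 732 miRNAs, the reprogrammed mean of miR-148a-3p was 4.57 below ESCs on the VST scale (difference -4.57, SE 0.12, adjusted p = 5.23e-11) and 4.96 below MEFs (difference -4.96, SE 0.12, adjusted p = 7.16e-12). Each reprogrammed type passed the test alone against ESCs, with a difference of -4.55 for iPSCs, -4.53 for NT-ESCs and -4.62 for NT-iPSCs. By abundance the miRNA stood at rank 17 to 24 of 1042 in MEFs and 19 to 28 in ESCs, and at 128 to 141 in reprogrammed cells. In bulk libraries, fewer cells holding a miRNA and less of it per cell cannot be told apart.

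miR-148b-3p was also low in reprogrammed cells but was highest in ESCs. The 3 ESC libraries held 2591, 2924 and 3335 CPM, MEFs held 697, 809 and 977 CPM, and the reprogrammed libraries ran from 203 CPM through a median of 256 CPM to 374 CPM. The 3 groups did not overlap. VST means were 16.11 ± 0.18 in ESCs (SD, n = 3), 15.16 ± 0.20 in MEFs (n = 3), and 12.52 ± 0.14, 12.32 ± 0.02 and 12.71 ± 0.45 in iPSCs, NT-ESCs and NT-iPSCs (n = 2 each). The reprogrammed mean differed by -3.59 from ESCs (SE 0.16, adjusted p = 1.55e-09, limma) and by -2.64 from MEFs (SE 0.16, adjusted p = 1.39e-08, limma). In CPM these were 10.9-fold and 3.05-fold, and by normalized reads 11.9-fold and 6.18-fold.

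miR-152-3p set itself apart from both, with reprogrammed cells at about the ESC level and MEFs above. ESC libraries held 2029, 2154 and 2017 CPM, and the pairs from iPSCs, NT-ESCs and NT-iPSCs held 2835 and 2688, 1774 and 2262, and 2233 and 1253 CPM. MEFs held 6745, 4115 and 5543 CPM, above every other library. The ESC libraries fell inside the range of the reprogrammed ones. NT-iPSC library 52 was the lowest of all and its partner, library 51, was close to the ESCs. VST means were 17.87 ± 0.47 in MEFs and 15.60 ± 0.10 in ESCs (SD, n = 3 each), and 15.60 ± 0.09, 15.50 ± 0.29 and 15.42 ± 0.61 in iPSCs, NT-ESCs and NT-iPSCs (n = 2 each).

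The reprogrammed mean of miR-152-3p differed from ESCs by -0.09 (SE 0.22, 95% interval -0.59 to 0.40, adjusted p = 0.71, limma). The sign of so small a difference changed with the scaling (0.02 per total miRNA reads). Against MEFs it was 2.36 lower (difference -2.36, SE 0.22, adjusted p = 1.04e-06), and MEFs exceeded ESCs by 2.27 (SE 0.26, adjusted p = 9.19e-06). In CPM the MEF mean was 2.51-fold the reprogrammed mean and 2.65-fold the ESC mean. By the normalized reads that underlie the VST values, these were 5.22-fold and 4.98-fold.

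The 5p arms were scarcer, and those of miR-148a and miR-148b were low in reprogrammed cells, as their 3p arms were. miR-148a-5p had 357, 386 and 350 reads in MEFs, 485, 591 and 644 in ESCs, and 6 to 18 reads (median 8.5) in the reprogrammed libraries. Every reprogrammed library was far under every MEF and ESC library. Its reprogrammed mean differed from ESCs by -6.18 (SE 0.30, adjusted p = 3.77e-09, limma), the difference at rank 9 from the lowest of 732. miR-148b-5p had 1151, 967 and 837 reads in MEFs, 1649, 2005 and 1742 in ESCs, and 85 to 168 (median 119.5) in reprogrammed libraries, with a difference of -4.33 from ESCs (SE 0.22, adjusted p = 5.73e-09, limma). Again no reprogrammed library overlapped the others.

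miR-152-5p was close to the limit of detection, where 3 reads correspond to 0.348 to 0.617 CPM. It had 14, 25 and 21 reads in MEFs, 4, 3 and 3 in ESCs, and 3 and 1, 2 and 1, and 6 and 3 in the libraries of iPSCs, NT-ESCs and NT-iPSCs. Only the MEF libraries stood clear of that limit. Its difference between reprogrammed cells and ESCs was -0.80 (SE 0.38, adjusted p = 0.070, limma). It passed with TMM-type scaling (difference -0.83, adjusted p = 0.031), without iPSC library 62 (adjusted p = 0.026) and without NT-iPSC library 51 (adjusted p = 0.042), each time bringing the members called to 5. For iPSCs alone the adjusted p was 0.057, and 0.031 and 0.021 in the first 2 of these settings.

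In all, 4 of the 6 members fell below their ESC level in the reprogrammed mean and none rose above it. Over all 732 miRNAs 82% passed this test, 38% as lower, so that passing it was common. The members' median difference was -3.96, beside 0.24 over all miRNAs, and their median size of change was 3.96 beside 2.00. Against MEFs the 5 members other than miR-152-5p were lower, with a median of -3.70 beside 0.40 over all miRNAs, of which 88.9% passed and 40.4% were lower. miR-152-5p, which had to be lower there by the minimum of reads, had a difference of -3.39. Taken by type, 4 members were below ESCs in iPSCs, 4 in NT-iPSCs and 5 in NT-ESCs. Over all miRNAs 75.8% passed for iPSCs (36.1% as lower), 77.6% for NT-iPSCs (36.5%) and 75.8% for NT-ESCs (36.1%). The additional member in NT-ESCs was miR-152-5p, whose call rests on 1 to 4 reads a library. It was lost without ESC library 2 (adjusted p = 0.087, limma), NT-ESC library 71 (0.054) or NT-ESC library 72 (0.15), which left 4 members.

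**Figure D2:**
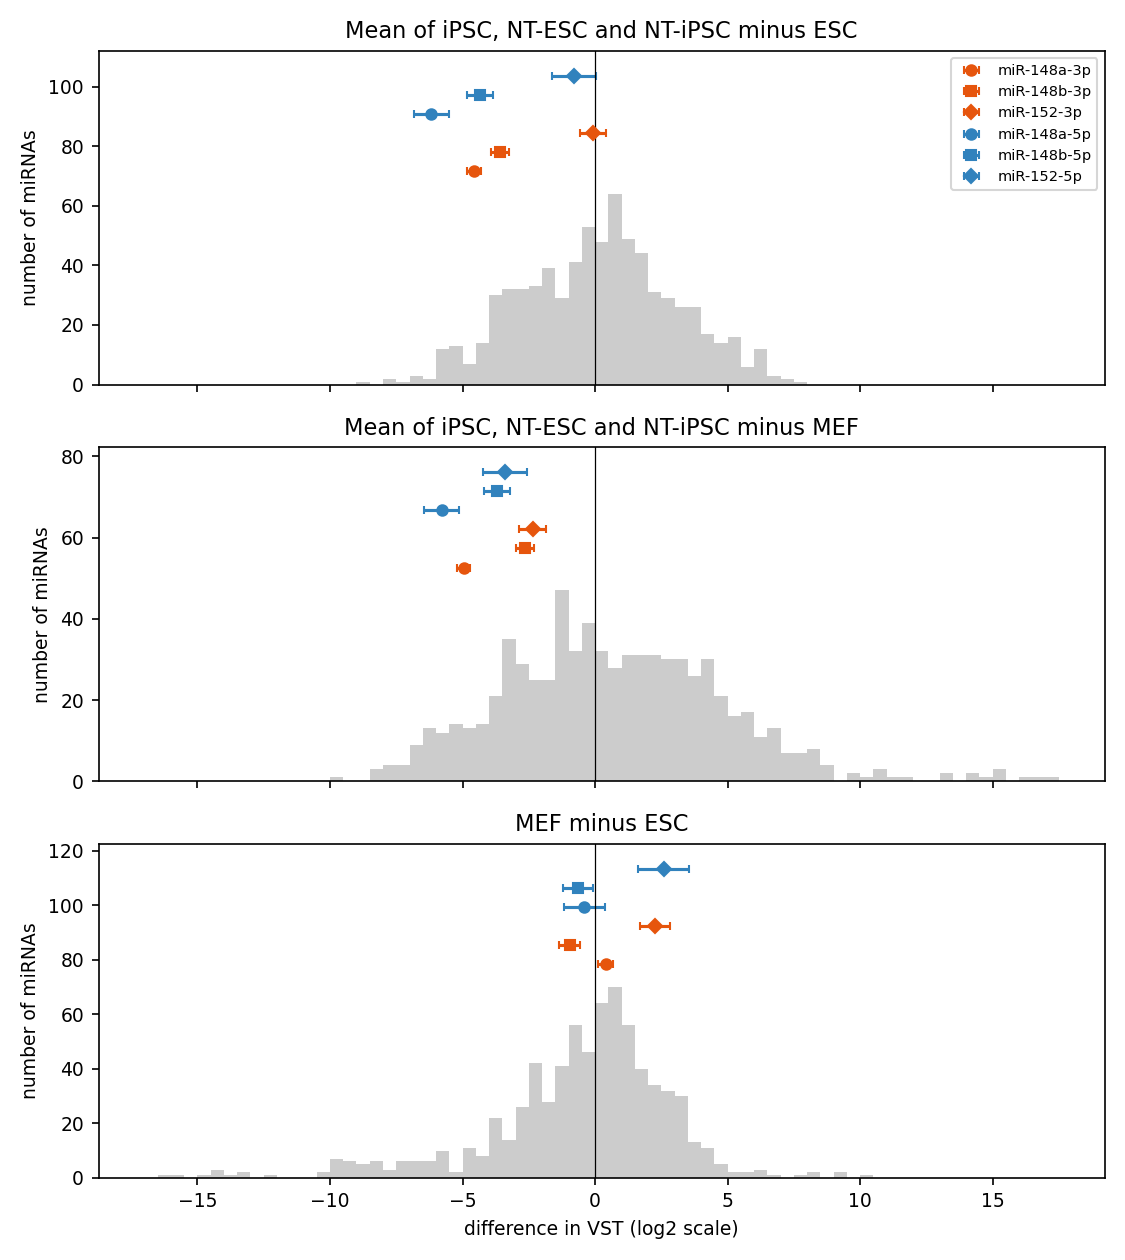
Differences in VST (log2 scale) for the 6 members (symbols, 95% intervals, height without meaning) over histograms of all 732 miRNAs tested (grey, number of miRNAs per bin of 0.5). The arms of miR-148a and miR-148b lie between -6.18 and -3.59 against ESCs and miR-152-3p at -0.09, while all 6 lie below 0 against MEFs, where miR-152-5p had to by the minimum of reads.

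Markers of other cells also differed between the groups. With miR-199a-3p and miR-143-3p set aside, 4 fibroblast markers were left. They summed to 6704 to 8070 CPM in MEFs, 1556 to 1647 CPM in ESCs and 231 to 1145 CPM in reprogrammed cells. Of these, miR-10b-5p, miR-199a-5p and miR-214-3p were lower in every reprogrammed library than in any ESC library. miR-145-5p ran higher, with 98.3 to 121 CPM in ESCs and 114 to 803 CPM in reprogrammed cells. miR-143-3p, itself high in mesenchymal cells, had 35935 to 40712 CPM in ESCs and 1163 to 3465 CPM in reprogrammed cells. miR-199a-3p went the other way, with 1356 to 1707 CPM in ESCs and 9942 to 33868 CPM in reprogrammed cells. The 5 blood markers summed to 1275 to 1540 CPM in ESCs and 272 to 608 CPM in reprogrammed cells. The hepatocyte marker miR-122-5p was highest in reprogrammed cells, at 225 to 720 CPM. It had 37.1 to 43.7 CPM in MEFs and 60.7 to 110 CPM in ESCs. The part of feeder or other cells in the differences of miR-148a and miR-148b was not tested.

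By reads, the family was made up differently in reprogrammed cells than in MEFs and ESCs. All 6 arms together took 1.41% ± 0.18 of miRNA reads in MEFs and 1.63% ± 0.13 in ESCs (SD, n = 3 each), and 0.297% ± 0.069 in reprogrammed cells (n = 6). Within the family, miR-148a-3p held 65.7% to 67.5% of reads in ESCs and 50.3% to 57.8% in MEFs, but 14.1% to 19.96% in reprogrammed libraries. miR-152-3p held 11.9% to 13.7% in ESCs, 34.0% to 44.0% in MEFs and 63.1% to 77.9% in reprogrammed libraries. Thus miR-148a-3p led the family in MEFs and ESCs, and miR-152-3p led it in every reprogrammed library.

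Each of these differences between reprogrammed cells and ESCs gave p = 0.0119 in a two-sided exact permutation test over libraries, the smallest that 6 against 3 libraries can give (adjusted p = 0.0313 over 21 such tests). Leaving out any 1 ESC library ended the calls against ESCs (adjusted p = 0.0833). Between reprogrammed cells and MEFs the family share, miR-148a-3p and miR-152-3p gave the same exact permutation p = 0.0119 (adjusted p = 0.0313). Those calls were likewise lost without any 1 MEF library (adjusted p = 0.0833 to 0.0938). Both losses were fixed in advance. With 1 library fewer in a group of 3, no values could pass the exact test after adjustment over the 21 tests. miR-148b-3p held 18.1% ± 1.33 of family reads in ESCs, 5.93% ± 1.20 in MEFs and 9.53% ± 3.45 in reprogrammed cells, with exact permutation p = 0.0119 against ESCs (adjusted p = 0.0313) and p = 0.119 against MEFs (adjusted p = 0.147). NT-iPSC library 52, at 16.3%, stood above the other 5 reprogrammed libraries (7.09% to 9.72%). Counting error was small beside this spread: the 95% Wilson interval of that share was 15.7% to 16.9%. Such intervals cover counting error only.

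**Figure D3:**
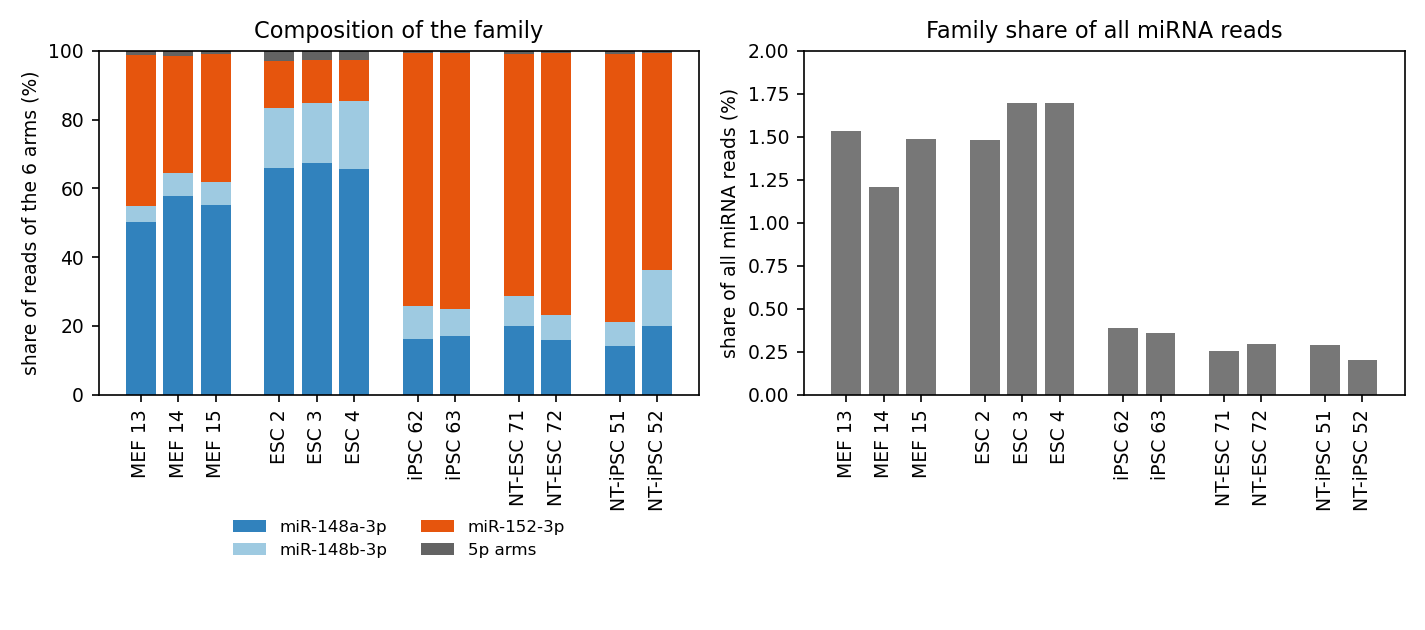
Left, the share (%) of the reads of the 6 arms taken by each 3p arm and by the 5p arms together, for each library named by cell type and replicate. Right, the share (%) of all miRNA reads taken by the 6 arms; miR-152-3p takes 63.1% to 77.9% of the family in the 6 reprogrammed libraries, and the family takes 0.199% to 0.385% of their miRNA reads.

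The balance of the arms was examined within each hairpin, as the share of 5p reads among both arms. For miR-148a it was 1.01% ± 0.13 in ESCs, 0.59% ± 0.10 in MEFs and 0.345% ± 0.195 in reprogrammed cells. ESCs were above every reprogrammed library, and MEFs overlapped them. The exact permutation p between reprogrammed cells and ESCs was 0.0119 (adjusted p = 0.0313), and on the log2 odds of the share the adjusted p was 0.0625. Only 65 of 19687 reads of the miR-148a hairpin in reprogrammed cells came from the 5p arm, which limits this comparison.

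miR-148b had by far the largest 5p share: 10.5% ± 1.08 in ESCs, 12.97% ± 3.25 in MEFs and 6.90% ± 2.44 in reprogrammed cells. The libraries of reprogrammed cells overlapped those of ESCs and of MEFs. The exact permutation p was 0.0476 against ESCs (adjusted p = 0.0909) and 0.0238 against MEFs (adjusted p = 0.0556), so neither difference passed. For miR-152 the 5p share lay under 0.08% in every library, with 16 reads of 84770 over all reprogrammed libraries, and no comparison passed (exact permutation, adjusted p = 0.236 against ESCs and 0.0909 against MEFs).

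**Figure D4:**
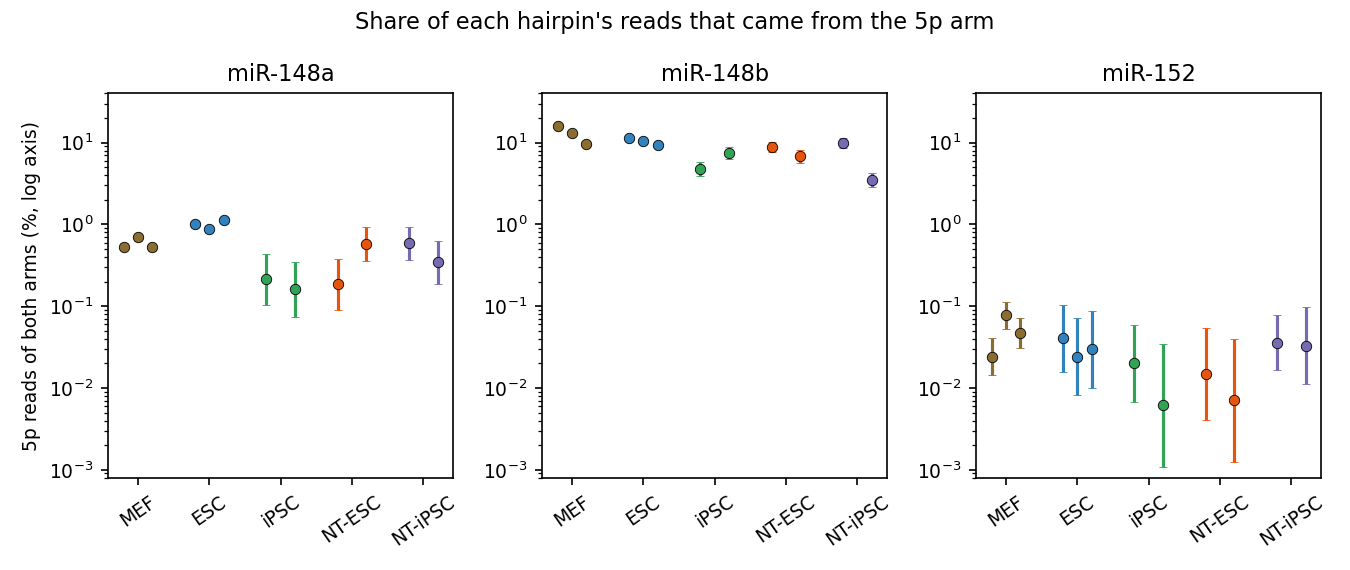
Share of each hairpin's reads from its 5p arm (%, log axis) in each library, with 95% Wilson intervals for counting error. The share is 3.50% to 16.1% for miR-148b, 0.162% to 1.14% for miR-148a and at most 0.0772% for miR-152.

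MEFs and ESCs, the cell types at the 2 ends of reprogramming, were compared last. For miR-148a-3p the direction depended on the scale. On the VST scale MEFs were higher by 0.39 (SE 0.14, adjusted p = 0.020, limma), and with upper quartile scaling by 0.75 (adjusted p = 0.00032). By total miRNA reads they were lower (difference -0.50, adjusted p = 0.0026). TMM-type scaling gave -0.07 (adjusted p = 0.72), and the total without the 10 most abundant miRNAs gave 0.12 (adjusted p = 0.37). Scaling to total reads moved the median of all 732 miRNAs by -0.78 in this comparison, by 0.94 between reprogrammed cells and MEFs and by 0.11 between reprogrammed cells and ESCs. miR-148b-3p was lower in MEFs than in ESCs (difference -0.95, SE 0.18, adjusted p = 0.00053, limma), and passed under all 15 alternatives (-1.84 to -0.59).

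Of the 5 members other than miR-152-5p, 4 passed between MEFs and ESCs, 2 higher (miR-152-3p and miR-148a-3p) and 2 lower (both arms of miR-148b). miR-152-5p, which met the minimum of reads only through MEFs and so had to be higher, had a difference of 2.59 (SE 0.43). Over all miRNAs 79% passed, 39.1% as higher and 39.9% as lower. Without MEF library 15 or without ESC library 2 only miR-148b-3p and miR-152-3p of these 5 passed. miR-148b-5p was lower (difference -0.63, SE 0.25, adjusted p = 0.039, limma), but the call was lost in 5 of the 6 fits that left out 1 library (adjusted p = 0.070 to 0.12) and held only without MEF library 13 (0.023). It was also lost with upper quartile scaling (adjusted p = 0.34) and with no filter on reads (0.076), whereas the difference grew to -1.10 with TMM-type scaling (adjusted p = 0.0019) and to -1.53 by total miRNA reads (adjusted p = 5.4e-05). The call of miR-148a-3p was lost in 3 of these 6 fits, without MEF library 13, MEF library 15 or ESC library 2 (adjusted p = 0.060 to 0.080). miR-148a-5p had -0.40 (SE 0.35, adjusted p = 0.30, limma), but it passed as lower with TMM-type scaling (difference -0.87, adjusted p = 0.028), by total miRNA reads (difference -1.29, adjusted p = 0.0032) and with only MEFs and ESCs in the fit (adjusted p = 0.023). Of all 732 differences, that of miR-152-3p was at rank 115 from the highest and that of miR-148b-3p at rank 268 from the lowest.

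No difference of a member between the 3 reprogrammed types passed the test on the VST scale. Between iPSCs, NT-ESCs and NT-iPSCs, 0 of 18 member comparisons passed by limma, with 2 at an unadjusted p under 0.05, while 25.7%, 26.5% and 12.8% of all miRNAs passed for NT-ESCs against iPSCs, NT-iPSCs against iPSCs and NT-iPSCs against NT-ESCs. With voom weights the counts were 0 and 0. The 9 differences of the 3p arms lay between -0.20 and 0.40, with 95% intervals reaching from -0.88 to 0.88, so differences of that size were not excluded by these libraries. The 2 at an unadjusted p under 0.05 were miR-148a-5p in NT-iPSCs against iPSCs (difference 1.11, adjusted p = 0.081) and miR-152-5p in NT-iPSCs against NT-ESCs (difference 1.27, adjusted p = 0.14), both at 18 reads or fewer.

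These counts rested on the scaling and on single libraries. By total miRNA reads, miR-148a-3p (difference -0.62, adjusted p = 0.0059) and miR-152-3p (difference -0.72, adjusted p = 0.045) were lower in NT-iPSCs than in iPSCs. In CPM the pairs of libraries held 621 and 609 (iPSCs), 500 and 469 (NT-ESCs) and 405 and 397 (NT-iPSCs) for miR-148a-3p, without overlap, whereas on the VST scale the 3 types spanned 13.33 to 13.52. With upper quartile scaling miR-148a-5p was higher in NT-iPSCs than in iPSCs (difference 1.23, adjusted p = 0.042), and without NT-ESC library 71 it was higher in NT-ESCs than in iPSCs (difference 1.52, adjusted p = 0.019).

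Across the 12 libraries the VST values of miR-148a-3p and miR-148b-3p ran together (Pearson r = 0.95), those of miR-148a-3p and miR-152-3p less so (r = 0.64), and those of miR-148b-3p and miR-152-3p least (r = 0.39). Between the arms of a hairpin r was 0.98 for miR-148a, 0.97 for miR-148b and 0.86 for miR-152. The miR-148a arms nevertheless had differences of opposite sign between MEFs and ESCs on this scale (0.39 for 3p and -0.40 for 5p). The r of miR-152 in part restates the minimum of reads. miR-152-5p met that minimum only through MEFs, where miR-152-3p was also highest. These values describe 12 libraries that share 5 cell types and carry no test. Of all 732 miRNAs, the patterns most like miR-148a-3p were those of miR-27a-5p (r = 0.997), miR-151-3p (0.996) and miR-140-5p (0.995), and those most like miR-148b-3p were miR-3084-5p (0.985), miR-339-3p (0.984) and miR-30e-3p (0.983). miR-140-5p, best known from cartilage, averaged a VST of 14.61 in MEFs, 14.21 in ESCs and 6.15 to 6.995 in the 3 reprogrammed types. The nearest to miR-152-3p were miR-532-5p (0.967), miR-133b-5p (0.959) and miR-376c-3p (0.953), and miR-133b-5p had no read outside MEFs.

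Other miRNAs known to act on DNA methyltransferases were set beside the family. Of the 9 listed, 6 rose and 2 fell from ESCs to the reprogrammed mean, with a median difference of 0.88 beside 0.24 over all miRNAs, of which 44% rose and 38% fell (the list was drawn up with earlier results of these data known). miR-29a-3p and miR-29c-3p, of a family that acts on Dnmt3a and Dnmt3b, were higher by 4.89 (SE 0.13, adjusted p = 6.4e-11, limma) and 5.74 (SE 0.16, adjusted p = 7.47e-11). miR-29a-3p had 688 to 783 CPM in ESCs and 13984 to 34335 CPM in reprogrammed cells, the reverse of miR-148a-3p. miR-185-5p, reported to act on Dnmt1, was higher by 2.98. miR-126-3p and miR-143-3p, linked to Dnmt1 and Dnmt3a, were lower, with differences of -8.55 and -4.22. Between MEFs and ESCs 4 of the 9 were higher and 4 lower, where 39.1% of all miRNAs were higher and 39.9% lower.

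The miR-130 and miR-301 family was set beside miR-148 for a seed shifted by 1 base (AGUGCAA, as in miR-130a-3p, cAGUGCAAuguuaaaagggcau). This seed was found in miR-130a-3p, miR-130b-3p and miR-301a-3p of the 4 listed, and miR-301b-3p was not matched. It was also found in miR-721, which is in the table but not on the list and did not reach the minimum of reads. Of the 4 listed, 3 fell and 1 rose from ESCs to the reprogrammed mean, with differences of -3.29 for miR-301b-3p, -2.53 for miR-301a-3p, -0.84 for miR-130b-3p and 0.59 for miR-130a-3p. In MEFs 2 of the 4 were lower than in ESCs and none was higher. Of the 7 miRNAs with the ES cell seed, the family of miR-294 and miR-302 that speeds the cell cycle of pluripotent cells, 4 rose and 2 fell from ESCs to the reprogrammed mean, and all 7 were lower in MEFs. The shares of all miRNAs given above for these comparisons, 44% higher and 38% lower in the reprogrammed mean and 39.9% lower in MEFs, apply to both lists. In MEFs the abundant miR-295-3p of that list reached at most 2.56 CPM, whereas each 3p arm of miR-148a, miR-148b and miR-152 had 697 CPM or more.

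**Figure D5:**
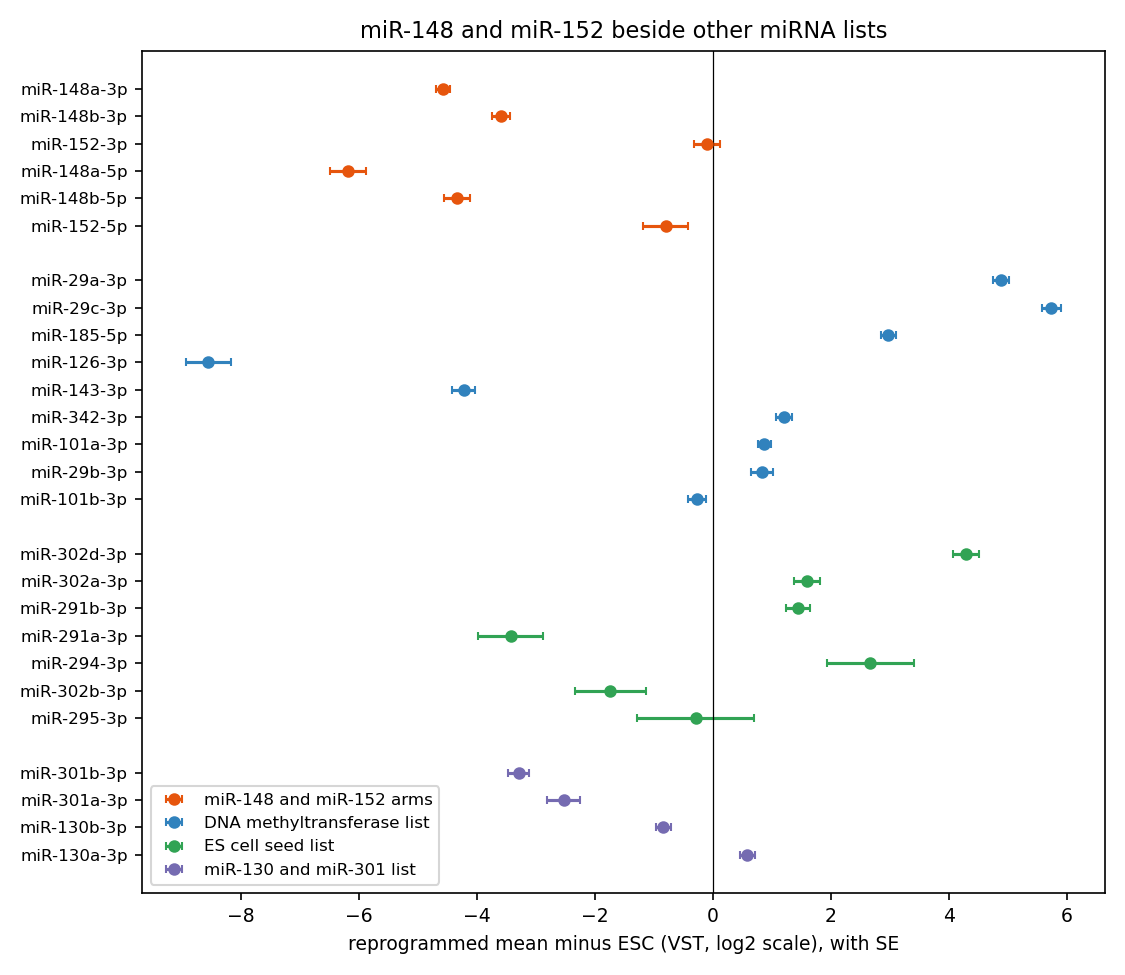
Difference in VST (log2 scale) of the averaged reprogrammed types from ESCs, with its SE, for the 6 members and for the miRNAs of 3 other lists. The arms of miR-148a and miR-148b lie between -6.18 and -3.59, whereas miR-29a-3p and miR-29c-3p lie at 4.89 and 5.74.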

How the data were processed

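The authors trimmed and annotated Solexa reads and processed the miRNA reads with DESeq, and deposited 1 table of values after variance stabilizing transformation on the log2 scale; the submitters' notes name build mm8, and the aligner and the treatment of mismatches are not given in the sources used here. The transformation was inverted to whole reads: 100% of values above 0 came within 0.05 read of a whole number, and CPM and shares were computed from these reads. Differences were tested on the deposited log2 values with limma 3.58.1 (R 4.3.3), with 1 mean per cell type, a trend in the prior variance and Benjamini-Hochberg adjustment over the 732 miRNAs that reached 10 reads in 2 or more libraries; a call is an adjusted p under 0.05. The reprogrammed mean is the mean of the 3 types. The fit was tested on simulated data. Shares were compared over libraries by two-sided exact permutation tests. The libraries of a group differed by more than sampling noise, so none was merged. miR-199b-3p was left out of the fibroblast markers because its reads were within 2.84% of those of miR-199a-3p. The patterns named as most alike are the 3 highest Pearson r per 3p arm, and list members are named by the smallest adjusted p. The members and the lists were chosen with earlier results of these data known. Alternatives were other scalings, voom, other filters, only the groups compared, other forms of the shares and leaving out each library.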

Additional observations from a re-analysis of the deposited data

How the results depend on the processing

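The lower levels of miR-148a-3p and miR-148b-3p in reprogrammed cells than in ESCs passed under all 18 alternatives, with differences of -4.72 to -4.45 and -3.74 to -3.47, as did those against MEFs (-5.28 to -3.95 and -2.97 to -1.63), where total miRNA reads gave the smallest. The higher level of miR-152-3p in MEFs than in ESCs also passed under all 15 of its alternatives (1.38 to 2.62). Between MEFs and ESCs, miR-148a-3p turned to -0.070 with TMM-type scaling and to -0.50 by total miRNA reads. Upper quartile scaling raised its difference to 0.75. The difference of miR-152-3p between reprogrammed cells and ESCs stayed near 0 and changed sign: the mean became 0.023 by total miRNA reads and 0.0021 by the total without the 10 most abundant, which gave 0.42 and 0.22 for iPSCs, and 0.0059 for NT-ESCs with the latter. miR-152-5p in NT-iPSCs against ESCs turned from -0.0066 to 0.082 with upper quartile scaling. Members called between NT-iPSCs and iPSCs rose from 0 to 1 with upper quartile scaling and 2 by total miRNA reads.

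Leaving out 1 library gave 3 to 4 members called between MEFs and ESCs with miR-152-5p, which had to be higher, and 2 to 3 of the other 5 without it, and 0 to 1 between NT-ESCs and iPSCs. Differences of miR-152-3p from ESCs then ranged from -0.24 to 0.050 for the reprogrammed mean, -0.061 to 0.060 for iPSCs, -0.31 to 0.10 for NT-ESCs and -0.61 to 0.25 for NT-iPSCs, and miR-152-5p in NT-iPSCs from -0.42 to 0.41. For shares, the smallest p of the exact permutation test rises with fewer libraries. Without 1 ESC or 1 MEF library, no values could pass against that group after adjustment. Every call against ESCs was thus lost without any 1 ESC library (exact permutation, adjusted p = 0.083). So was every call against MEFs without any 1 MEF library (0.083 to 0.094). Without 1 reprogrammed library some calls were lost and others kept: for the family share between reprogrammed cells and ESCs the adjusted p was 0.047 without iPSC library 62 and 0.054 without iPSC library 63. The groups did not overlap in this share in either fit, so its unadjusted p was the smallest possible in both. Only the p-values of the other shares in the adjustment differed. In percentage points the differences of reprogrammed cells from ESCs ranged from -1.40 to -1.29 (family share), -49.8 to -48.6 (miR-148a-3p), -9.94 to -7.83 (miR-148b-3p), 58.8 to 61.8 (miR-152-3p) and -0.73 to -0.60 (5p share of miR-148a). Those of MEFs from reprogrammed cells ranged from 1.05 to 1.21 (family share), 35.6 to 39.4 (miR-148a-3p), -37.0 to -32.0 (miR-152-3p) and 4.50 to 7.75 (5p share of miR-148b), the last passing without NT-iPSC library 51. On the log2 odds the 5p share of miR-148a differed by -1.67 (adjusted p = 0.0625). With the 10 most abundant miRNAs out of the denominator, the family share became higher in MEFs than in ESCs by 0.86 percentage points. Few reads limit miR-152-5p and the 5p share of miR-148a. No paired analysis was possible because the cell types share no replicate numbers in the labels.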
